A study of Homo sapiens with 4 samples.

Results

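The 8 genes described here, PLAU, PLAUR, PLAT, SERPINE2, SERPINB2, SERPINB6, SERPINB8 and SERPINI1, encode plasminogen activators, their receptor and serpins, and each is 1 of the 57815 genes in the expression table. They were looked up by gene symbol, and the set was chosen by the very values compared below (the FPKM of each cell line and its bounds), so their differences are a description and no test was made on them. RNA-Seq was performed on MDA-MB-231, a human triple-negative breast cancer cell line, and on LM2-4175, which was isolated from MDA-MB-231 and metastasizes to the lung. Each cell line was grown without treatment in the same serum-containing medium, so by their labels the groups differ only in the cell line, and each is represented by 2 libraries, 4 in all. In the deposited table the libraries of a cell line were merged into 1 FPKM for each gene (sequenced fragments, corrected for transcript length and for library depth), so no difference below has a replicate check.

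Values in brackets after an FPKM are the lower and upper bound that came with it, and whether those bounds include the spread between libraries is not stated. The number of fragments behind a value is not known from the table. Of all genes, 13911 had an OK status in both cell lines and a mean of at least 0.5 FPKM, and these are the genes tested. Changes are log2 ratios of FPKM + 1 in LM2-4175 over MDA-MB-231, a scale on which changes of low genes come out too small, and a gene was called when it changed by at least 1.5-fold with bounds that lay apart. The interval given with a change is a 95% interval made from the bounds alone. Of 4 markers of the cell line, VIM and CD44 (1355 and 469.7 FPKM in MDA-MB-231) were not called and KRT8 and KRT18 were called lower in LM2-4175. The epithelial marker EPCAM was called lower too, from 12.3 to 4.93 FPKM, and CDH1 had 0.851 and 0.366 FPKM and was not called. The hormone receptor genes ESR1 and PGR stayed under 0.04 FPKM. ERBB2 was at 35.0 FPKM (20.9–49.0) in MDA-MB-231 and 22.8 FPKM (12.8–32.7) in LM2-4175, and was not called. Of 6 leukocyte markers, PTPRC, ITGAM and LYZ were under 0.5 FPKM, CD3E was listed at 0, CD14 reached 1.75 FPKM and CD68 reached 179 FPKM with wide bounds. Of 4 fibroblast markers, whose summed level was 14.1 FPKM in MDA-MB-231 and 33.1 FPKM in LM2-4175, COL1A1 was called higher, PDGFRB and LUM were called lower and DCN was near 0, and their part in the results was not tested.

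Plasminogen is a circulating zymogen that becomes plasmin, a protease of fibrin and matrix proteins, when it is cleaved by the urokinase-type activator (uPA, from PLAU) or the tissue-type activator (tPA, from PLAT). uPA is held at the cell surface by its receptor uPAR (from PLAUR), so that plasmin is made where a cell meets the matrix, and high uPA and uPAR are known features of invasive breast cancer. Serpins stop proteases by trapping them in a covalent complex. The serpins protease nexin-1 (SERPINE2), PAI-2 (SERPINB2) and neuroserpin (SERPINI1) can inhibit plasminogen activators, whereas SERPINB6 and SERPINB8 belong to the clade of mostly intracellular serpins.

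Among the members, SERPINB2 had by far the largest difference, going from near 0 to 23.5 FPKM. PLAUR and SERPINE2 were also called higher in LM2-4175, and no member was called lower. PLAU was higher and SERPINB6 lower by more than 1.5-fold, each with bounds that overlapped only at their ends. On the scale of FPKM + 1, PLAT, SERPINB8 and SERPINI1 differed by less than 1.5-fold. All 8 members passed the filter, SERPINB2 only through its level in LM2-4175, so that it had to differ. Over all genes tested, 4.67% were called higher and 4.61% were called lower, and nothing is read from the members' count of 3 higher against this background because the same contrast chose them. The median log2 change was 0.61 over the members and -0.04 over all genes tested.

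**Figure D1:**
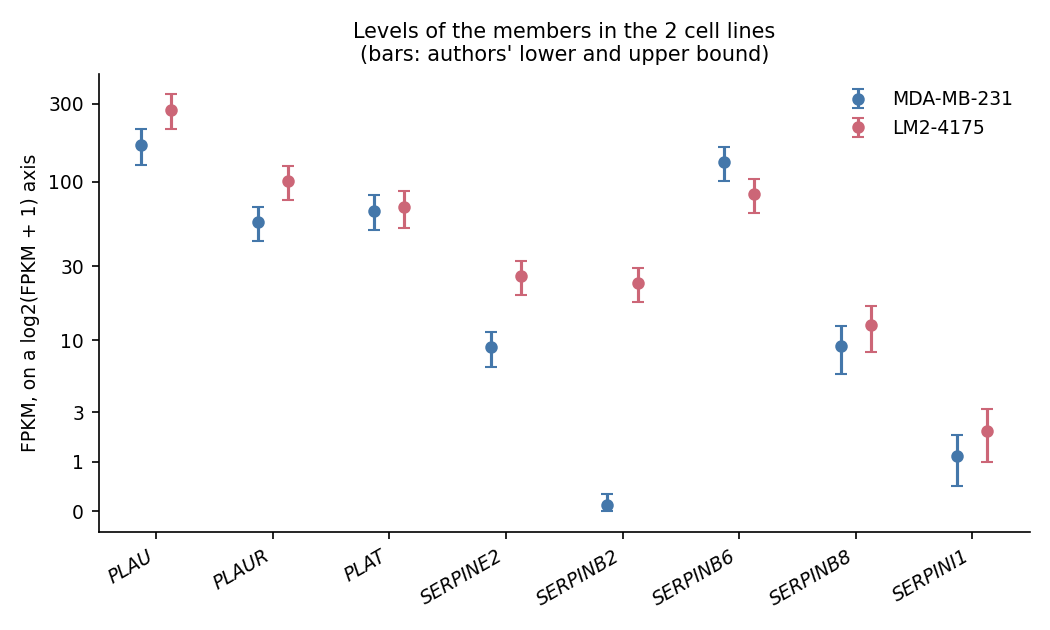
FPKM of the 8 members (y axis, drawn as log2(FPKM + 1) and labelled in FPKM) in MDA-MB-231 (blue) and LM2-4175 (red), with bars from the lower to the upper bound. The bars of PLAUR, SERPINE2 and SERPINB2 lie apart, those of PLAU and SERPINB6 overlap at their ends, and SERPINB2 in MDA-MB-231 sits at 0.0913 FPKM.

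Promoter sequences are shown for PLAU and its receptor, and for SERPINB2, which had the largest difference, beside SERPINB8, the next member on the same chromosome, which was not called. Each line gives the 250 bases before a RefSeq start, 5′ to 3′ on the gene's strand, from a GRCh38.p14 table and placed by exact match on GRCh37, and each of these starts is also the start of the gene's canonical GENCODE transcript. Capitals mark the letters of AP-1, TATA box and GC box motifs, which were searched on both strands. A match of letters does not show that a factor binds.
PLAU, chr10:75670640-75670889, plus strand: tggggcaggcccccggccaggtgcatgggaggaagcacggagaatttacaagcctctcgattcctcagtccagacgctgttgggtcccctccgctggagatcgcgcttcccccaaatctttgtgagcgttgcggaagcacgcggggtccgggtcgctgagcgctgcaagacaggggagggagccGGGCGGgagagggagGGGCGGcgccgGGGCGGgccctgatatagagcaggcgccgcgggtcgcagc
PLAUR, chr19:44174322-44174571, minus strand: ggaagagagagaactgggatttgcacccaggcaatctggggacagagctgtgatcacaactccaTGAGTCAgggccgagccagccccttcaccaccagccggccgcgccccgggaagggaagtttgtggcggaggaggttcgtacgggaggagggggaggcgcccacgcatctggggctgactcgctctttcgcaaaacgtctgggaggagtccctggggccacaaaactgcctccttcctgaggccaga
SERPINB2, chr18:61554689-61554938, plus strand: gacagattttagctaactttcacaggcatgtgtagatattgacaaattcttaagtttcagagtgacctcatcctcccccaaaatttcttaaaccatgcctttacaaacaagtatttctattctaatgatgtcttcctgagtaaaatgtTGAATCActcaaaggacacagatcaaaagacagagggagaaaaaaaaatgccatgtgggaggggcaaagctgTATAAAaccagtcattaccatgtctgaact
SERPINB8, chr18:61637065-61637314, plus strand: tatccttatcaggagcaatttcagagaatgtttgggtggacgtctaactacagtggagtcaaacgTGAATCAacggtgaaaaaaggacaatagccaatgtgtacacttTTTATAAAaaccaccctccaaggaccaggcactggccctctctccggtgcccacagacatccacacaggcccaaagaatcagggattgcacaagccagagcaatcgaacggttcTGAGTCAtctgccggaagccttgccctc

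The AP-1 letters, TGANTCA, occur in PLAUR from 186 to 180 bases before the start, in SERPINB2 from 102 to 96 bases, and in SERPINB8 at 185 to 179 and at 28 to 22 bases. They occur in 3 of the 7 member windows nearest the canonical start and in 6.57% of all 35116 promoter windows of this length. The windows of PLAU, SERPINE2, SERPINB6 and SERPINI1 held none, and no test was made on this count. SERPINB2 has TATAAA from 30 to 25 bases before its start and a GC content of 37.2%, and SERPINB8 has it from 140 to 135 bases, overlapping a match on the other strand; 10.7% of all windows hold these letters. PLAU differs from both, with a GC content of 68.8% and with 3 GC boxes (GGGCGG) in its last 66 bases, a motif that 42.6% of windows hold. SERPINB2, with the largest change, and SERPINB8, which was not called, both hold AP-1 and TATA letters. The letters of CRE (TGACGTCA), in 1.65% of all windows, and of NF-kB, in 9.96%, were in none of the 7 member windows nearest the canonical start. PLAT was not searched, and the RefSeq windows of SERPINE2 begin away from the canonical start.

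The uPA gene PLAU (ENSG00000122861, chromosome 10 of GRCh37, 75668935 to 75677254, plus strand) was the most abundant member in each cell line. Its level was 169 FPKM (126–212) in MDA-MB-231 and reached 276 FPKM (210.3–343) in LM2-4175. The ratio was 1.64 and the log2 change 0.71 (0.22–1.2). PLAU stood at rank 561 of all genes by FPKM in MDA-MB-231 and at rank 260 in LM2-4175. Its bounds overlapped by 1.25 FPKM, so it was not called on the deposited scale. It was called when the cell lines were brought to the same FPKM sum, to the same distribution or to a median ratio of 1. Exons of the antisense gene C10orf55, which was at 0.749 FPKM in the parental line and 1.56 FPKM in LM2-4175, cover 31.0% of the exon bases of PLAU, and reads of the 2 genes cannot be told apart if strand was not used.

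PLAUR (ENSG00000011422, chromosome 19, 44150247 to 44174699, minus strand), which encodes the receptor that anchors uPA to the membrane, stood at 56.4 FPKM (42.9–69.9) in MDA-MB-231 and rose to 101 FPKM (77.0–125) in LM2-4175. Its ratio of 1.79 and its log2 change of 0.83 (0.36–1.3) were slightly larger than those of PLAU. The bounds were 7.03 FPKM apart, and the call was lost only when a fold of 2 was asked for. No exon of another gene overlaps PLAUR. PLAU RNA was 2.99 times (2.13–4.21) that of its receptor in MDA-MB-231, and in LM2-4175 it was 2.74 times (1.97–3.81), intervals that overlap.

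PLAT (ENSG00000104368, chromosome 8, 42032236 to 42065227, minus strand) encodes tPA, the activator best known for dissolving clots. Its 66.4 FPKM (50.2–82.5) in MDA-MB-231 compared with 70.1 FPKM (52.0–88.1) in LM2-4175, at a ratio of 1.06. The 95% interval of its log2 change, 0.08 (-0.42 to 0.57), includes 0 and stays within 1.5-fold in either direction. PLAU RNA amounted to 2.54 times (1.80–3.59) that of PLAT in MDA-MB-231, and 3.94 times (2.80–5.57) in LM2-4175, with overlapping intervals. Of 12 genes of activators, related proteases, the receptor and plasminogen, 5 passed the filter, PLAUR was called higher, none was called lower, and the median log2 change was 0.21. Over all genes tested, 4.67% were called higher and 4.61% lower. The substrate of both activators was hardly expressed by the cells, since PLG, the plasminogen gene, was at 0.44 FPKM (0–0.944) in the parental line and 0.341 FPKM (0–0.774) in LM2-4175.

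**Figure D2:**
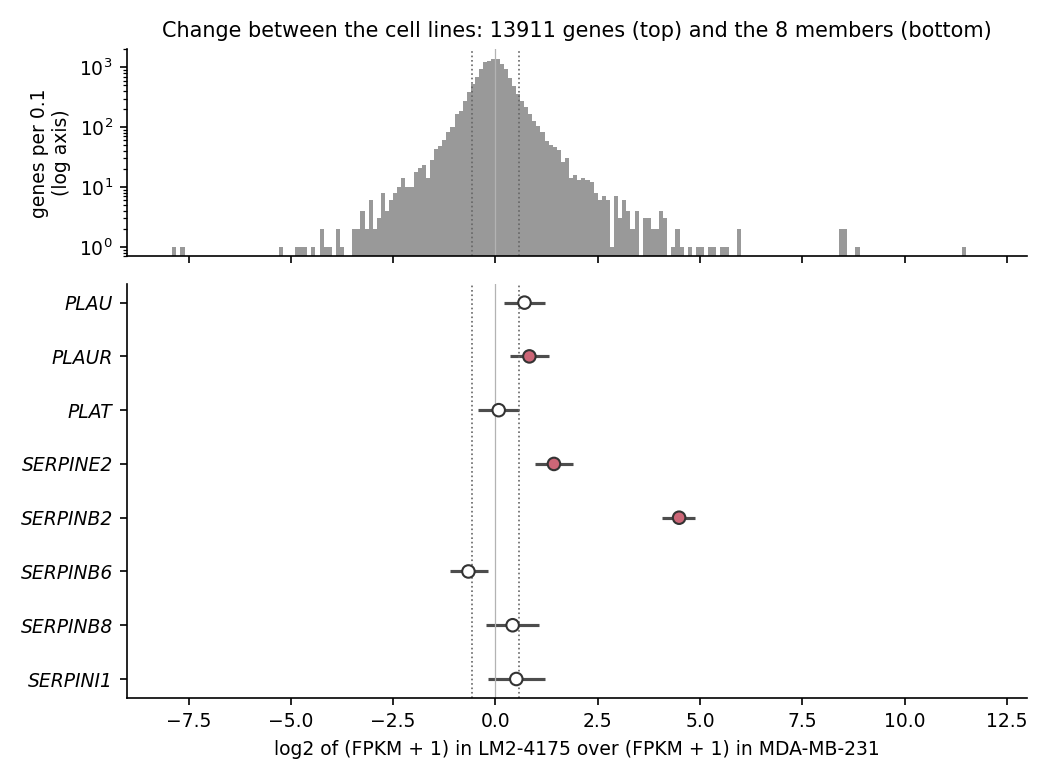
Top, number of genes per 0.1 of log2 change (log axis) over the 13911 genes tested. Bottom, log2 change of each member (point) with its 95% interval from the bounds (line), filled red where called higher and open where not called. Dotted lines mark 1.5-fold, and SERPINB2 lies at 4.49, far to the right of the other members.

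SERPINB2 (ENSG00000197632, chromosome 18, 61538926 to 61571122, plus strand) encodes PAI-2, which inhibits uPA and tPA and is found mostly inside cells. MDA-MB-231 had 0.0913 FPKM (0–0.271) and LM2-4175 had 23.5 FPKM (17.7–29.2). The lower bound in LM2-4175 was 65.5 times the upper bound in MDA-MB-231. The log2 change of 4.49 (4.08–4.89) placed SERPINB2 at rank 17 among the 13911 genes tested, and the same change was 8.01 without a pseudocount because the value in MDA-MB-231 is so low. Whether more cells expressed SERPINB2 or each cell expressed more of it cannot be told apart in these bulk libraries. A readthrough gene of a later annotation, ENSG00000289724, shares 19.96% of the exon bases. The promoter sequence of SERPINB2 given earlier, with TATAAA close to the start, lies inside the annotated gene because longer transcripts begin upstream.

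SERPINE2 (ENSG00000135919, chromosome 2, 224839762 to 224904035, minus strand) encodes protease nexin-1, a secreted inhibitor of thrombin, uPA and tPA that binds to glycosaminoglycans of the matrix. Its level rose from 8.97 FPKM (6.58–11.4) in MDA-MB-231 to 25.9 FPKM (19.6–32.1) in LM2-4175, 2.88 times as much. The log2 change was 1.43 (0.96–1.9), at rank 310 of all genes tested, and SERPINE2 was called under each of the 12 alternatives tried, as was SERPINB2. No exon of another gene overlaps it. PLAT RNA was 7.40 times (5.19–10.5) that of SERPINE2 in MDA-MB-231 and 2.71 times (1.92–3.83) in LM2-4175, intervals that lie apart.

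SERPINI1 (ENSG00000163536, chromosome 3, 167453031 to 167543357, plus strand) encodes neuroserpin, an inhibitor of tPA best known in neurons, and was low in both cell lines. MDA-MB-231 contained 1.16 FPKM (0.419–1.89) and LM2-4175 contained 2.07 FPKM (0.983–3.16). Although the plain ratio was 1.79, as for PLAUR, the bounds overlapped over 0.91 FPKM, and the log2 change of 0.51 (-0.19 to 1.21) does not separate the cell lines.

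SERPINB6 (ENSG00000124570, chromosome 6, 2948393 to 2972399, minus strand) encodes an intracellular inhibitor of trypsin-like proteases and was the 1 member with a lower value in LM2-4175. MDA-MB-231 had 133 FPKM (102–164), LM2-4175 had 84.0 FPKM (64.2–104), and the ratio of 0.632 gave a log2 change of -0.66 (-1.12 to -0.19). The bounds overlapped by 2.11 FPKM, and SERPINB6 was not called. SERPINB8 (ENSG00000166401, chromosome 18, 61637263 to 61687013, plus strand), whose product can inhibit the convertase furin, was at 9.11 FPKM (5.80–12.4) in the parental line and at 12.5 FPKM (8.37–16.7) in LM2-4175, with a log2 change of 0.42 (-0.22 to 1.06). Exons of other genes, mostly of HMSD on the same strand, cover 9.07% of SERPINB8. With the fold alone, 4 members were higher and 1 was lower, where 10.3% of all genes tested were higher and 11.8% lower.

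Summed over the 5 serpin members, MDA-MB-231 had 152 FPKM and LM2-4175 had 148 FPKM. SERPINB6 held 87.3% of that sum in the parental line but 56.8% in LM2-4175, where SERPINB2 held 15.9%. The sum of the activators PLAU and PLAT went from 235 to 347 FPKM. These ratios and sums were formed after the values had been seen, and they compare RNA per kilobase, not protein or protease activity.

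The order of the members by FPKM differed between the cell lines. In MDA-MB-231 it ran PLAU, SERPINB6, PLAT, PLAUR, SERPINB8, SERPINE2, SERPINI1 and SERPINB2, and the bounds overlapped between PLAU and SERPINB6, between PLAT and PLAUR, and between SERPINB8 and SERPINE2. In LM2-4175 PLAU stood apart from all others, followed by PLAUR, SERPINB6 and PLAT with overlapping bounds between neighbours, then by SERPINE2 and SERPINB2, which overlapped, and by SERPINB8 and SERPINI1. SERPINB2 thus moved from the lowest place to that next to SERPINE2.

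The surroundings of the members on their chromosomes were compared with the members themselves. Genes said to be directly beside a member are the nearest that passed the filter without overlapping it, so genes not tested can lie between. None of the 7 genes tested within 1 Mb of SERPINB2 came near its change, as their log2 changes ran from -0.99 to 0.58 with a median of -0.36. Of the nearest tested genes on either side of SERPINB2, SERPINB7 was called lower, from 0.885 to 0.148 FPKM, and HMSD had 6.68 and 10.5 FPKM and was not called. Of the 6 genes tested around SERPINE2, DOCK10 was called higher with a larger log2 change of 1.79. SCG2, which passed the filter only through MDA-MB-231, was called lower with -1.37. MRPL44 and CUL3, the nearest tested genes on either side of SERPINE2, had -0.05 and 0.22. Around PLAUR, 3 of 39 genes had a change as large or larger and the median was 0.02. None of these genes was called higher, and PSG5 was called lower, from 7.63 to 0.434 FPKM. PSG5 passed the filter only through MDA-MB-231. The nearest tested genes on either side of PLAUR, CADM4 and SMG9, had -0.24 and -0.37.

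For PLAU the picture differed, because 26 of the 30 genes tested around it had a log2 change above 0, as did 6326 of all 13911 genes tested. Their median log2 change was 0.33, none was called, and ZSWIM8 alone, at 0.80, exceeded the 0.71 of PLAU. CAMK2G and VCL, directly beside PLAU, had 0.50 and 0.30. Around SERPINB6, 15 of 17 genes had a log2 change below 0, as did 7585 of all 13911 genes tested, with a median of -0.38. Of these 17, 2 were called lower (SERPINB9 and TUBB2A) and HTATSF1P2 was called higher at 1.16. Its clade B relatives there had lower values too: SERPINB9, which inhibits granzyme B, fell from 27.0 FPKM (20.8–33.2) to 6.75 FPKM (5.05–8.46) and was called, and SERPINB1, an inhibitor of neutrophil elastase, had 93.0 FPKM (66.6–119) and 52.6 FPKM (37.3–67.9) and was not called. The part of the surroundings in the values of PLAU and SERPINB6 was not tested.

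**Figure D3:**
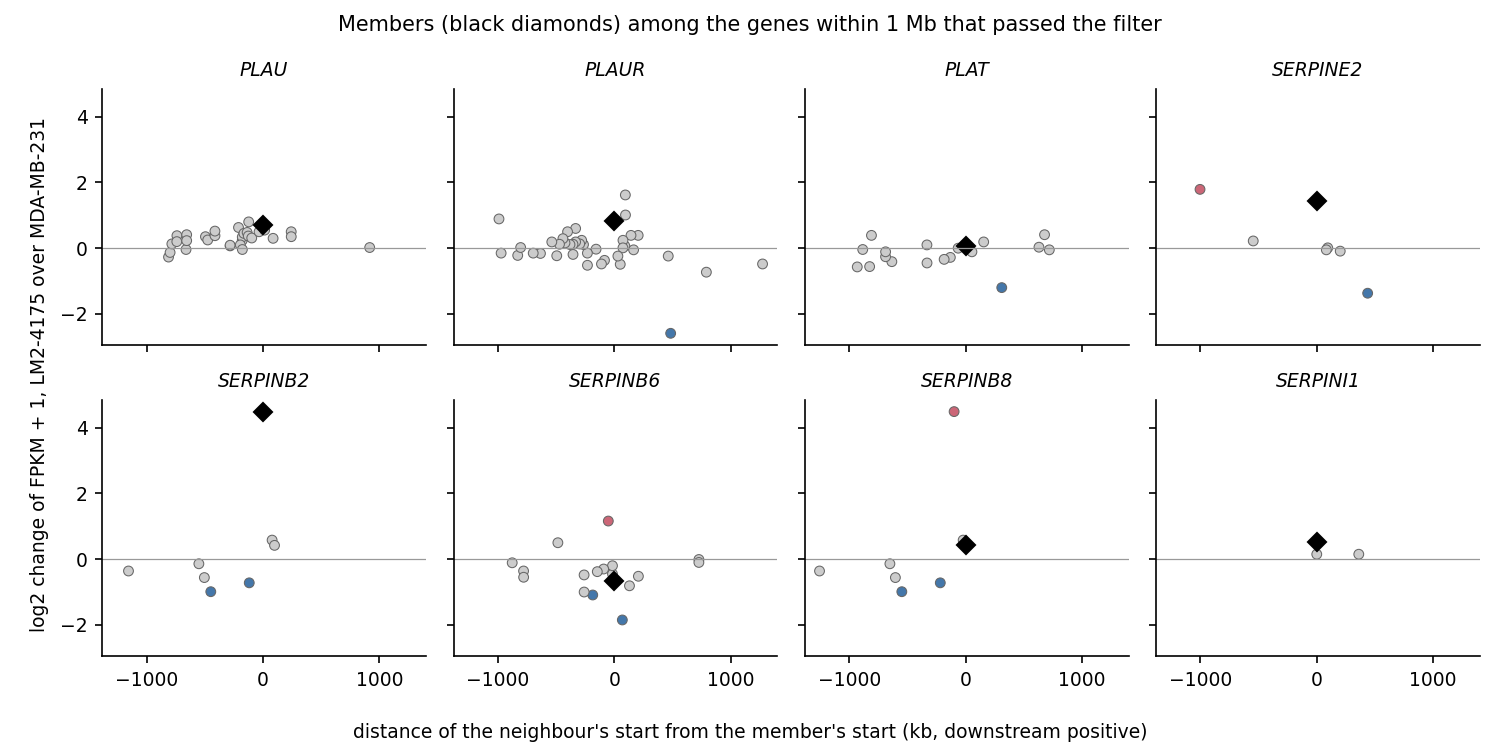
Log2 change of each member (black diamond) and of the genes within 1 Mb that passed the filter (circles, red called higher, blue called lower, grey not called), against the distance between their starts in kb with downstream positive. SERPINB2 stands alone at 4.49, whereas most genes around PLAU lie above 0 and most around SERPINB6 lie below 0.

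The other genes of the system came from lists written with earlier results of these data known, so their counts are a description. Of 24 proteins that bind plasminogen, uPA or uPAR, take them up or act beside them, 22 were tested, 6 were called lower and none was called higher, where 4.61% and 4.67% of all genes tested were, with a median log2 change of -0.14. Among them, S100A10, which with annexin A2 forms a surface receptor for plasminogen, fell from 914 FPKM (688–1139) to 419 FPKM (317–522). Its partner ANXA2 went from 2077 FPKM (1511–2642) in MDA-MB-231 to 1255 FPKM (936–1574) in LM2-4175, with a log2 change of -0.73 and overlapping bounds. CAV1, the main coat protein of caveolae, fell from 587 to 151 FPKM, and the keratin genes KRT8 and KRT18 fell from 626 to 180.2 FPKM and from 448 to 181 FPKM. The sorting receptor gene SORL1 fell from 4.42 to 0.49 FPKM, and FPR1, a receptor known to work with uPAR, from 4.34 to 0.215 FPKM. SORL1 and FPR1 passed the filter only through MDA-MB-231, so they had to be higher there. The filter did not require a change of 1.5-fold on the scale of FPKM + 1. At a mean of at least 5 FPKM, 4 genes of this list were called lower. LRP1, which clears complexes of uPA and its inhibitor, was at 5.15 FPKM (0.638–9.65) in the parental line and 17.2 FPKM (5.72–28.7) in LM2-4175, with overlapping bounds, and was not called. ENO1, EGFR and the integrin gene ITGB1 were not called either.

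Of 15 inhibitors of plasminogen activators and plasmin, 12 passed the filter. For the counts of inhibitors and serpins given here, the shares over all genes tested were 4.67% higher and 4.61% lower. The 2 called were the members SERPINE2 and SERPINB2, and none of the 7 tested genes that are not members was called, with a median of -0.03. Among 34 serpin genes of any kind, 17 were tested, 3 were called higher and 4 lower, and the median was -0.03. Beside SERPINE2 and SERPINB2, SERPINA9 was called higher, from 0.00947 FPKM (0–0.115) in the parental line to 1.19 FPKM (0.67–1.70), and it passed the filter only through LM2-4175, so that it had to differ. The 4 called lower were SERPINB9, SERPINB7, SERPINH1, a collagen chaperone gene that fell from 129.7 to 68.9 FPKM, and SERPINA3, which fell from 1.62 to 0.389 FPKM. SERPINA3 passed the filter only through MDA-MB-231, so that it had to be higher there. For this gene too, the filter did not require a change of 1.5-fold on the scale of FPKM + 1. Of 6 clade B serpins tested, SERPINB2 was called higher and SERPINB7 and SERPINB9 lower, and SERPINB2 and SERPINB7 passed the filter only through the cell line where each was high. Without SERPINA9 and SERPINB7, at a mean of at least 1 FPKM, 2 serpins were called higher and SERPINB9 was the 1 clade B serpin called lower.

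**Figure D4:**
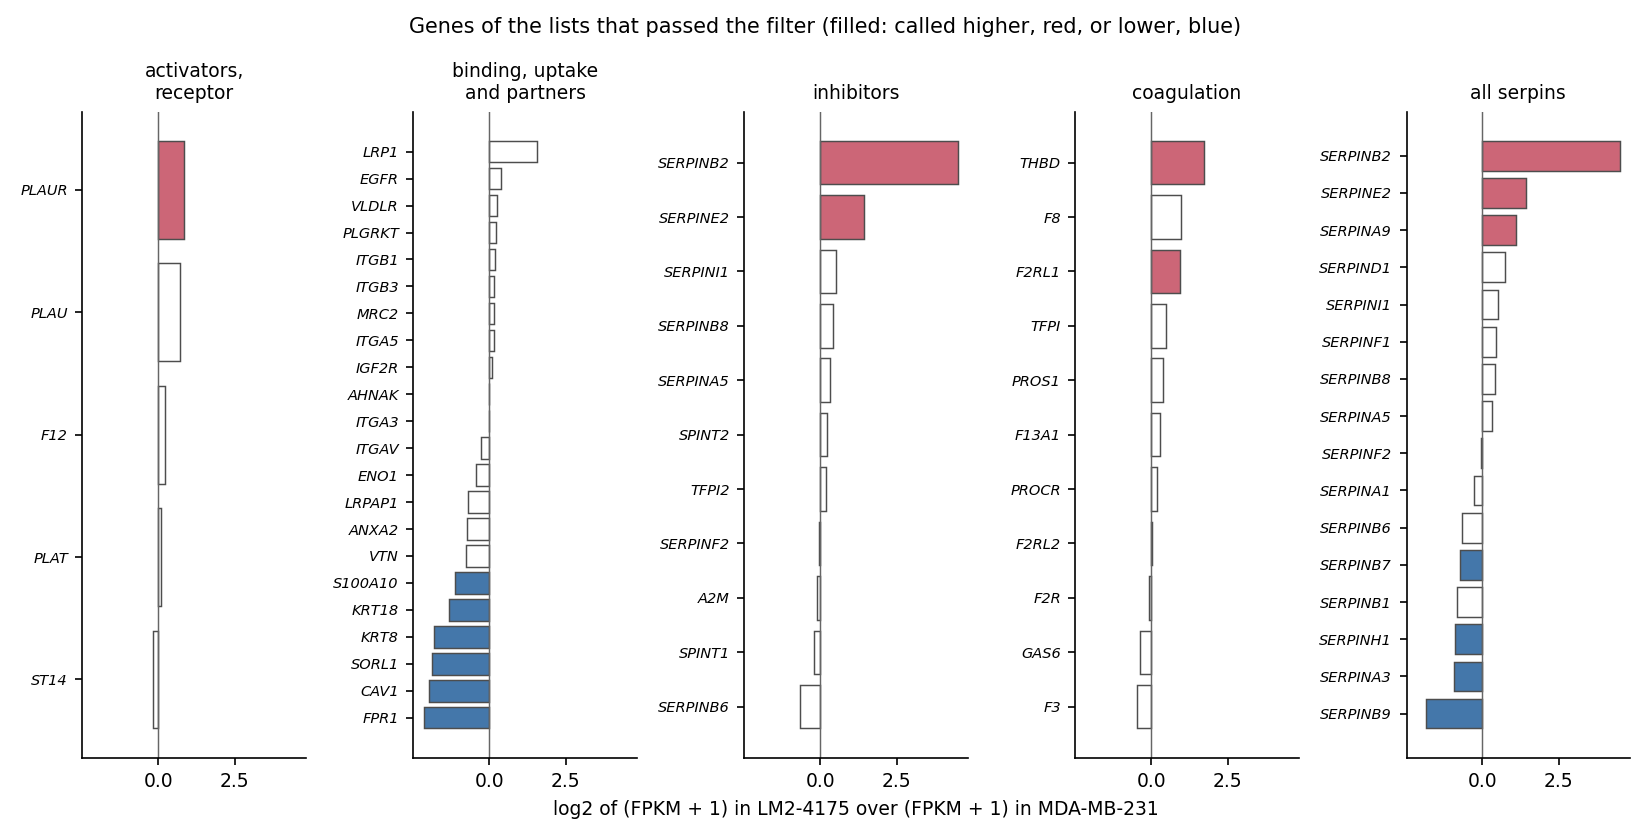
Log2 change of the genes that passed the filter, by list, ordered by size, with red bars called higher, blue bars called lower and open bars not called (1 inhibitor gene is left out). The calls among binding and partner genes are all lower (6 of 22), and SERPINB2 has the longest bar of the inhibitors and of all serpins.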

How the data were processed

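Per the labels and the study's methods, total RNA of 4 libraries was sequenced, and reads were aligned by the authors with TopHat2 to hg19, who quantified genes of GENCODE 19 with Cufflinks and compared cell lines with Cuffdiff. The values the authors deposited are FPKM with a lower and an upper bound, with the 2 libraries of a cell line combined. Library normalization and the use of strand are not given in the sources used here. No limma test, planned for values per library, could be run, and the precision rests on the bounds.

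Half-widths of the bounds, divided by 2, served as standard errors and were carried to the log2 scale for the 95% intervals, and the pseudocount was 1 FPKM. Genes passed with a mean of at least 0.5 FPKM. Members and gene lists were chosen with earlier results of these data known. All members were named, and of other lists the genes called plus some genes not called, given as values. Genes directly beside a member are the nearest that passed the filter, and some of them were named. ZSWIM8, DOCK10, SCG2, PSG5, TUBB2A, HTATSF1P2, SERPINB1 and LRP1 were picked after their values were seen. Positions come from GENCODE 44 on GRCh37, which held 55535 of 57815 genes. The calling step was tested on simulated data. Python 3.11.15, NumPy 2.4.6, pandas 2.3.3 and Matplotlib 3.10.9 were used, and 12 alternatives were tried. Of the genes listed, 2 are not reported here by themselves.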

Additional observations from a re-analysis of the deposited data

How the results depend on the processing

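No member changed direction under the 12 alternatives, and 87 of 95 recomputed member changes kept their side of the call. PLAU became a gene called higher under 5 alternatives (equal FPKM sums, quantile normalization, a median ratio of 1, the fold alone, and the fold with a 95% interval that leaves out 0), where its log2 change was 0.71 to 0.86. PLAUR was not called with a fold of 2. SERPINB6 was called lower with the fold alone and under the standard error rule, which makes 1 member lower under each in place of 0. SERPINI1 was not tested at a mean of at least 5 FPKM. Over all genes, 321 were called higher at a mean of at least 5 FPKM, against 649. The fold alone gave 1434 higher and 1640 lower, the standard error rule gave 1090 lower, and a fold of 2 gave 403 lower, against 641. Of 144 recounts over the lists, 127 stayed within 1.5 times. No paired analysis was possible because the table combines the libraries of a cell line, and for the same reason no library could be left out. The bounds are widest for low values: in MDA-MB-231 the upper bound lies 197% above the FPKM of SERPINB2 and 63.8% above that of SERPINI1.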

Other observations

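Coagulation shares its proteases and inhibitors with plasminogen activation, and a list of its factors, cofactors and receptors was read in the same way. Of 18 genes, 11 were tested, 2 were called higher in LM2-4175 and none was called lower, where 4.67% and 4.61% of all genes tested were, and the median log2 change was 0.30. THBD, the gene of thrombomodulin, which turns thrombin towards the activation of protein C, stood at 7.52 FPKM (5.66–9.39) in MDA-MB-231 and rose to 27.2 FPKM (20.97–33.3), with a log2 change of 1.72. F2RL1, which encodes the protease-activated receptor PAR2, rose from 66.7 FPKM (51.6–81.8) to 129.4 FPKM (97.7–161). The thrombin receptor gene F2R had 28.3 and 26.6 FPKM and was not called. F3, the gene of tissue factor, was at 256 FPKM (177–334) in the parental line, at 187 FPKM (124–249.8) in LM2-4175, and not called either. TFPI, the inhibitor of the tissue factor pathway, had 94.6 and 132 FPKM with overlapping bounds. The thrombin gene F2 itself was under 0.2 FPKM in both cell lines.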
